A study of Mus musculus with 18 samples.

Results

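The 38 mouse genes described here take part in the unfolded protein response and in quality control of the endoplasmic reticulum (ER). They were chosen by symbol from knowledge of the pathway, and all 38 were found among the 47069 genes of each table, with 35 of them among the 12161 genes kept by the filter on low counts. RNA was sequenced from single oocytes of C57BL/6JAusb mice at 2 stages. A germinal vesicle (GV) oocyte is immature and holds an intact nucleus, while a metaphase II (MII) oocyte is a mature egg. The aged NMN group came from mice of 12 months that drank water with nicotinamide mononucleotide (NMN, a precursor of NAD) at 2 g/L for 4 weeks. The aged control group was of the same age and drank plain water, and the young control group was of 4 weeks and drank plain water. The oocytes used were 3 MII aged NMN, 3 MII aged control, 3 MII young control, 3 GV aged NMN, 2 GV aged control and 2 GV young control.

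Proteins that enter the ER are folded by chaperones, joined by disulfide isomerases and, when they fail to fold, drawn back to the cytosol for degradation. Sensors in the ER membrane respond to unfolded protein. IRE1 (Ern1) splices the mRNA of the transcription factor XBP1, PERK (Eif2ak3) slows translation and favours the transcription factor ATF4, and ATF6 is cut by the site-1 and site-2 proteases (Mbtps1 and Mbtps2) to free another transcription factor. Their targets include the chaperones themselves. A growing oocyte secretes its zona pellucida and growth factors through the ER, and its calcium store at fertilisation lies in the same organelle.

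Each library was made from a single oocyte. Since no label says which oocytes shared a mouse, a group counts as 1 sample, differences between groups were not tested, and every value describes these oocytes. Library totals ran from 2756181 to 5586894 counts. Levels are each gene's share of a library's counts (CPM) after scaling with TMM factors. A detection floor of 3 counts was worth 0.537 to 1.09 CPM, depending on the library, and neither it nor the intervals below include more than counting error. Because CPM is a share, less of a gene's RNA per oocyte and more of the other RNA cannot be told apart. Of 18 deposited libraries, GV young control 1 and 2-1 were identical and were counted as 1 sample (GV young control 1), and GV aged control 2-2 held 5009 counts and was left out. MII aged NMN oocytes 1, 2 and 2-1 held 6444, 5679 and 7725 genes with a count, against 8539 to 10782 in MII aged control and 9106 to 13477 in MII young control oocytes, and 8825 to 13816 in GV oocytes. Mitochondrially encoded genes took 43.0, 33.2 and 6.18% of their counts, against 9.09 to 12.6% in MII aged control, 5.08 to 24.4% in MII young control and 2.76 to 8.55% in GV oocytes. The summed level of 10 oocyte markers such as Gdf9 and Bmp15 was 2133, 3294 and 5409 CPM in MII aged NMN oocytes 1, 2 and 2-1. It was 4175 to 11476 CPM in MII aged control, 7100 to 23884 CPM in MII young control and 4080.2 to 17834 CPM in GV oocytes.

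A known cis element of the unfolded protein response is the ER stress response element (ERSE), the letters CCAAT, 9 bases of any kind, then CCACG. It was searched on both strands of the RefSeq promoter windows of build GRCm38.p6, which run from 250 bases before to 50 bases after each gene's start. Of the 38 genes, 33 had a window (35 windows in all), and 8 of these genes (24.2%) held the element. In the table it was in 39 of 32851 promoters (0.119%), those of the members included. The members were chosen from knowledge of the response for which the element is known, so their higher share is not an added result. The windows around the element are shown because these 8 genes include chaperones and the co-chaperone whose levels are followed below. Each is written 5′ to 3′ on the gene's strand, and capitals mark the element, which reads CGTGG, 9 bases, ATTGG where it lies on the opposite strand.
Hspa5, chr2:34771985-34772083, plus strand: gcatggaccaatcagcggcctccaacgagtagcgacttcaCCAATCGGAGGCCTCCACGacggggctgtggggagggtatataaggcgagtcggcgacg
Calr, chr8:84847035-84847133, minus strand: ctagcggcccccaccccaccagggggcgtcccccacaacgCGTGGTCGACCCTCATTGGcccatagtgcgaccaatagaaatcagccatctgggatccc
Hsp90b1, chr10:86705598-86705694, minus strand: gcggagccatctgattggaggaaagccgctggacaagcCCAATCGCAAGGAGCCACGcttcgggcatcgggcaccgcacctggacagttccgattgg
Hsp90b1, chr10:86705493-86705591, minus strand: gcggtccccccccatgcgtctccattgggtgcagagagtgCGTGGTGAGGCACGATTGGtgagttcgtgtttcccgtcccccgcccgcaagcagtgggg
Canx, chr11:50325760-50325858, minus strand: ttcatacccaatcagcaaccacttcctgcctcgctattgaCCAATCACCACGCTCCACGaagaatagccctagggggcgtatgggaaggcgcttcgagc
Pdia6, chr12:17266451-17266549, plus strand: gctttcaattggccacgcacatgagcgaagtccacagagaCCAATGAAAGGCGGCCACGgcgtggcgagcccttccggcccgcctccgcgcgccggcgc
Dnajc3, chr14:118937787-118937885, plus strand: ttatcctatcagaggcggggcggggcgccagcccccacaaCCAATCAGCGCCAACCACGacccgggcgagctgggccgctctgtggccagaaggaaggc
Creld2, chr15:88819480-88819578, plus strand: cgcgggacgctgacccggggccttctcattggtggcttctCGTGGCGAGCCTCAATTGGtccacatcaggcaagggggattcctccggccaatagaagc
Syvn1, chr19:6046492-6046575, plus strand: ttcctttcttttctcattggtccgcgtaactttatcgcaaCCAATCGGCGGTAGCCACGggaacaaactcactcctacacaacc
In these 9 matches the element began between 44 and 212 bases before the annotated start. A second form, ERSE-II (ATTGG, 1 base, CCACG, which shares CCACG with ERSE), was found for Dnajb11 and Herpud1 and in 12 promoters of the table (0.037%). The letters TGACGTGG, a known XBP1 element, were in none of the 33 members' windows and in 0.676% of all promoters, and TTGCATCA, an ATF4 element, was in that of Herpud1 and in 0.895% of all. A match is a description of letters and not a bound site, and where none was found it says only that these letters are absent from the window.

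The pathway was uneven in these oocytes. By mean deposited TPM, which allows levels to be compared between genes, the highest over the 16 oocytes were Manf at 263 TPM, a secreted ER factor that stabilises HSPA5, Creld2 at 226 TPM, an ER isomerase-like protein, Dnajc3 at 176 TPM, a co-chaperone of HSPA5 that also restrains PERK, Ddit3 at 93.5 TPM, which encodes the transcription factor CHOP, and Pdia6 at 85.0 TPM, a disulfide isomerase. The stages differed, with Manf at 87.9 TPM in MII and 487 TPM in GV oocytes, Ddit3 at 22.7 TPM in MII and 185 TPM in GV oocytes, and Dnajc3 at 264 TPM in MII and 63.6 TPM in GV oocytes. Hspa5, the master ER chaperone also called BiP, stood at 33.6 TPM over both. The sensors were lower, at 10.1 TPM for Ern1, 7.21 TPM for Eif2ak3 and 3.74 TPM for Atf6. Atf6b, an ATF6 relative, the chaperone Hyou1 and the mannosidase-like Edem3 were at 0.786, 0.345 and 0.254 TPM.

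Xbp1, Herpud1 and Trib3, all of them standard targets of the response, did not pass the filter. Xbp1 had 4 counts over all 16 oocytes, 2 each in MII young control 2 and 2-1, which pooled to 0.0610 CPM (95% Poisson interval 0.0166 to 0.156). Herpud1, a membrane adaptor of ER-associated degradation, had 1 count in 1 oocyte (0.0152 CPM, interval 0.000386 to 0.0849). Trib3, a pseudokinase induced by CHOP, had 8 counts in 2 GV aged NMN oocytes (0.122 CPM, interval 0.0527 to 0.240). Spliced and unspliced Xbp1 are not separated in a gene table, and protein was not measured. Ddit3 and Ppp1r15a, which also belong to the ATF4 and CHOP branch, had counts in 14 and 16 of the 16 oocytes.

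**Figure D1:**
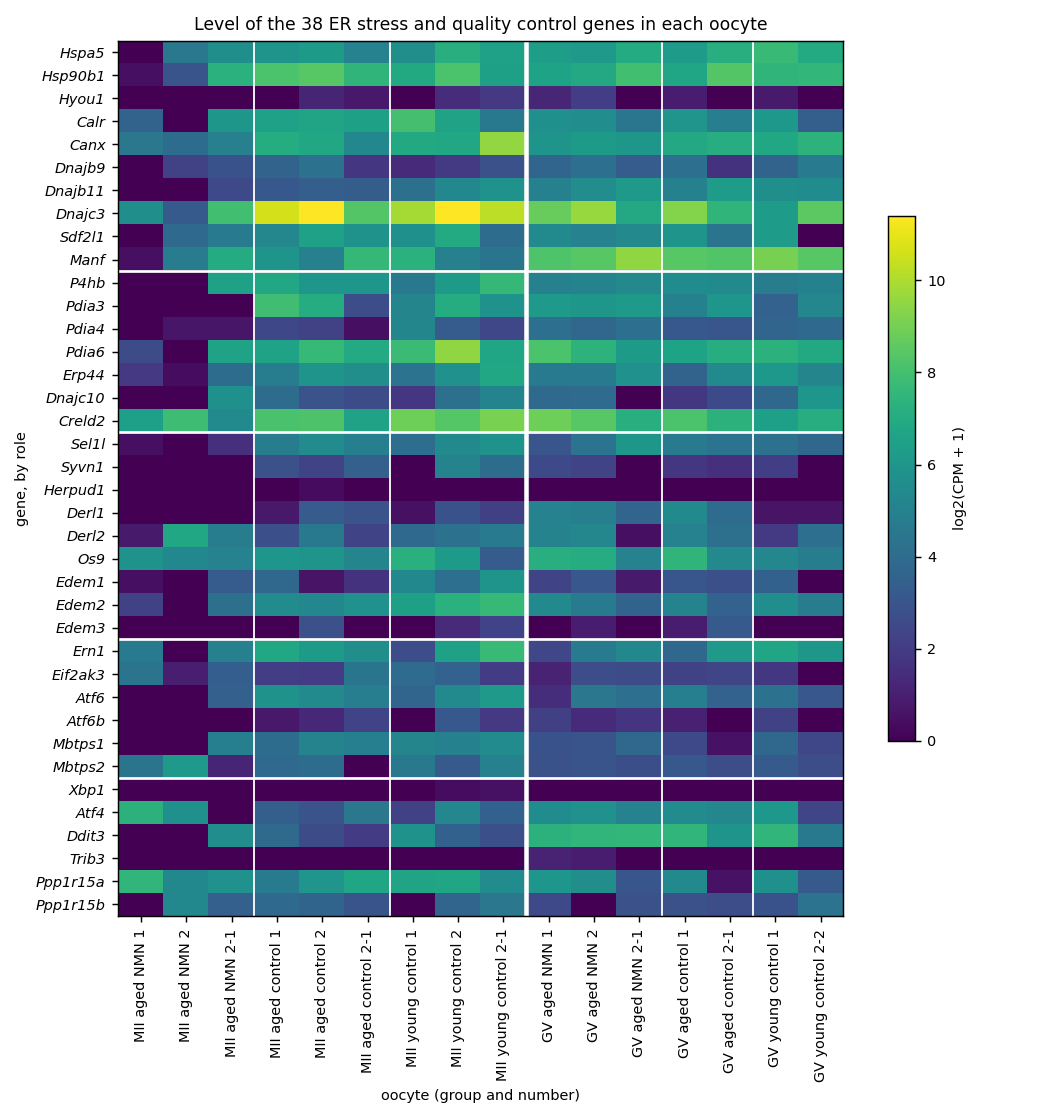
Level of each of the 38 genes (down the page, grouped by role with white lines between roles) in each of the 16 oocytes (across, by group), as log2 of CPM plus 1. Dnajc3 is the brightest gene of the MII control oocytes, Manf and Ddit3 are brighter in GV than in most MII oocytes, and MII aged NMN 1 and 2 are dark for most genes.

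Dnajc3 and Creld2 led the MII control oocytes. By mean TPM, Dnajc3 was at 365 ± 291 TPM in MII aged control and 411 ± 277 TPM in MII young control oocytes, and Creld2 at 234 ± 148 and 499 ± 300.4 TPM in the same groups (SD, n = 3 each), so that their order was not the same in both and lay within the spread. Dnajc3 held the largest share of the members' CPM, which are not adjusted for gene length, in 7 of 9 MII oocytes and in 3 of 7 GV oocytes. It took 19.7 to 57.8% of the members' summed CPM in the MII aged control oocytes and 29.9 to 48.0% in the MII young control oocytes. The summed level of the 38 genes was 642, 683 and 1285 CPM in MII aged NMN oocytes 1, 2 and 2-1, against 1678 to 4683 CPM in the MII aged control and 3091 to 5566 CPM in the MII young control oocytes. It was 2255 to 2819 CPM in GV aged NMN, 1993 to 2573 CPM in GV aged control and 1940.3 to 2269 CPM in GV young control oocytes. All 3 MII aged NMN sums were thus below those of the other 13 oocytes, whereas the GV groups lay close together. MII aged NMN 1 and 2 had a count for 18 and 17 of the 38 genes, and MII aged NMN 2-1 for 28, against 28 to 36 in the other oocytes.

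**Figure D2:**
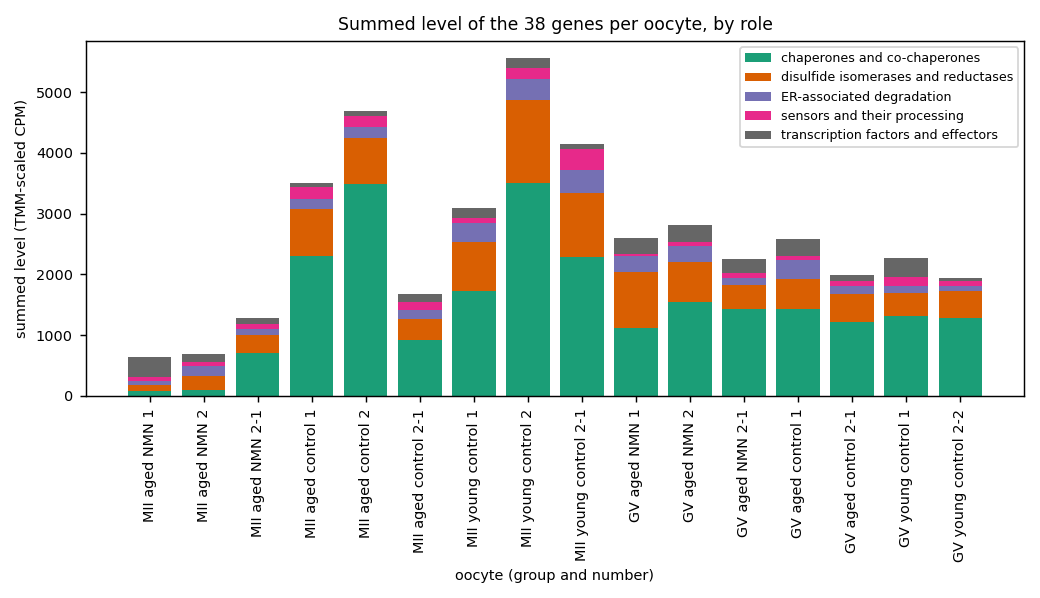
Summed TMM-scaled CPM of the 38 genes in each oocyte, stacked by role (bars start at 0). The bars of the 3 MII aged NMN oocytes (642 to 1285 CPM) are the lowest, and chaperones and co-chaperones are the largest segment in each MII control and GV oocyte.

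Maturation was described by setting MII beside GV oocytes within each condition. A gene is said here to pass the rule when the log2 ratio of group means (CPM plus 1) was at least 1 in size and no oocyte of a group overlapped the other group. Per the labels' protocols the nucleus of each oocyte was pelleted and the supernatant used, and an MII oocyte has no nuclear envelope, so the fraction of the cell sampled and the stage cannot be told apart. The median log2 ratio of all genes kept was -0.82 in aged NMN, -0.29 in aged control and 0.35 in young control oocytes. Scaling moved it most in young controls, where it was 0.10 with DESeq2 size factors and 0.67 with TPM, and the members' ratios are read beside it.

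Manf was the only member that passed the rule in the same direction in all 3 conditions. It was at 0.395, 26.7 and 127 CPM in MII aged NMN oocytes, against 306, 350.4 and 729 CPM in GV aged NMN oocytes, 8.98-fold lower. It was at 30.5, 58.4 and 195 CPM in MII aged control oocytes, against 319.9 and 345 CPM in GV aged control oocytes, 3.51-fold lower. In MII young control oocytes it was at 20.5, 30.5 and 154 CPM, against 346 and 542 CPM in GV young control oocytes, 6.49-fold lower. Every MII oocyte was thus below every GV oocyte of any condition. A lower level past the rule in all 3 conditions was found for 8.56% of all genes, so it is not particular to Manf. No member was higher past the rule in MII oocytes in all 3 conditions, against 0.469% of all genes.

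In young controls, 7 of the 38 genes were higher in MII oocytes past the rule and 2 lower, where 16.6% of all genes were higher and 15.4% lower. The members' median log2 ratio was 1.03, against 0.35 for all genes, and 27 members lay above 0, as did 57.6% of all genes. By role, 5 of 10 chaperones and co-chaperones lay above 0, as did 6 of 7 disulfide isomerases and reductases, 8 of 9 degradation genes, 6 of 6 sensors and 2 of 6 transcription factors and effectors. Dnajc3 was at 937, 1243 and 2672.5 CPM in MII young control oocytes, against 75.9 and 374 CPM in GV young control oocytes (log2 ratio 2.84, 7.18-fold). Its pooled counts gave 1724 CPM (95% Poisson interval 1704 to 1745) in MII and 224 CPM (214 to 235) in GV oocytes. Creld2 was at 334, 479 and 543 CPM in MII oocytes, against 86.0 and 139 CPM in GV oocytes, 4.02-fold higher. The oocytes of each stage did not overlap for either gene, although the GV oocytes themselves differed for Dnajc3.

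Of the 3 mannosidase-like members that mark misfolded glycoproteins for removal, Edem1 and Edem2 were higher past the rule in MII young control oocytes and Edem3 was not. Edem2 was at 87.4, 156 and 198 CPM in MII oocytes, against 26.3 and 46.6 CPM in GV oocytes (1.98 on the log2 scale, 4.03-fold). Edem1 was at 16.8, 38.7 and 58.9 CPM in MII oocytes, against 0 and 10.6 CPM in GV oocytes (7.23-fold). Both genes separated the stages fully. Of the sensors' group, the site-1 protease gene Mbtps1 was at 31.0, 35.1 and 43.8 CPM in MII oocytes, against 4.43 and 13.4 CPM in GV oocytes (4.11-fold). The site-2 protease gene Mbtps2 was at 8.25, 23.2 and 30.4 CPM in MII oocytes, against 5.48 and 8.24 CPM in GV oocytes (3.01-fold), with hardly any gap between the stages. Eif2ak3, the gene of PERK, was at 2.89, 10.9 and 14.9 CPM in MII oocytes, against 0 and 2.57 CPM in GV oocytes, also with a narrow gap. Besides Manf, Dnajb9 was lower, a co-chaperone that restrains IRE1, at 1.67, 2.80 and 6.20 CPM in MII oocytes, against 11.3 and 25.0 CPM in GV oocytes (5.11-fold).

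In aged controls, 5 members were higher in MII oocytes past the rule and 6 lower, where 8.32% of all genes were higher and 25.9% lower. The members' median was 0.29, against -0.29 for all genes. Edem2 and Mbtps1 were again higher, Edem2 at 38.8, 43.6 and 53.8 CPM in MII aged control oocytes, against 11.05 and 33.1 CPM in GV aged control oocytes (2.05-fold). Mbtps1 was at 15.1, 29.4 and 33.3 CPM in MII oocytes, against 0.491 and 4.73 CPM in GV oocytes (9.93-fold). Calr, the lectin chaperone calreticulin that also buffers ER calcium, was at 87.9, 90.1 and 102 CPM in MII oocytes, against 28.7 and 60.7 CPM in GV oocytes (2.08-fold). Dnajc10, an ER disulfide reductase, and Syvn1, the ubiquitin ligase HRD1, were the other 2, both below 10 CPM in each group mean.

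Ddit3, which encodes CHOP, had the largest ratio below 0 in aged controls. It was at 2.91, 5.25 and 14.6 CPM in MII oocytes, against 58.2 and 180.5 CPM in GV oocytes (log2 ratio -3.81, 15.7-fold lower). Atf4, the transcription factor upstream of it, was at 6.50, 10.03 and 21.8 CPM in MII oocytes, against 37.3 and 44.0 CPM in GV oocytes (3.18-fold lower). Dnajb11, an HSPA5 co-chaperone, was at 7.74, 9.44 and 10.005 CPM in MII oocytes, against 31.0 and 75.4 CPM in GV oocytes (5.87-fold lower). Derl1, a channel component of ER-associated degradation, was at 0.704, 6.54 and 8.75 CPM in MII oocytes, against 14.98 and 43.3 CPM in GV oocytes (5.47-fold lower). For each of these 4 the stages were clear of each other. The disulfide isomerase gene Pdia4 was 2.60-fold lower, from a GV mean of 7.54 CPM. Dnajc3 was at 330.5, 1617 and 2708 CPM in MII aged control oocytes, against 178 and 622 CPM in GV aged control oocytes, and here MII aged control 2-1 lay between the GV oocytes.

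With NMN, 0 members were higher in MII oocytes past the rule and 13 lower, where 3.34% of all genes were higher and 26.8% lower. The median was -1.44, against -0.82 for all genes, and 8 of the 38 members lay above 0, where 33.3% of all genes did. All 10 chaperones and co-chaperones had ratios below 0, which held under each of 4 scalings, and 6 passed the rule. Hspa5 was at 0, 22.6 and 50.9 CPM in MII aged NMN oocytes, against 68.1, 84.1 and 126 CPM in GV aged NMN oocytes (3.79-fold lower). Canx, the membrane lectin chaperone calnexin, was at 15.2, 22.1 and 30.0 CPM in MII oocytes, against 59.4, 65.3 and 72.7 CPM in GV oocytes (2.94-fold lower). Dnajb11 had 0, 0 and 4.68 CPM in MII oocytes, against 31.5, 46.7 and 68.4 CPM in GV oocytes. The stages did not overlap for any of these. Sdf2l1 (2.99-fold) and Dnajb9 (3.84-fold), both partners of HSPA5, were lower too.

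Among the enzymes and the degradation genes, the lowest MII aged NMN levels reached 0. Pdia3, the disulfide isomerase that works with calnexin and calreticulin, had no count in the 3 MII aged NMN oocytes, against 65.1, 71.5 and 71.8 CPM in GV aged NMN oocytes, at least 207-fold lower when the whole group is set to 3 counts. Derl1 had no count either, against 12.3, 28.2 and 32.0 CPM in GV aged NMN oocytes, at least 72.2-fold lower. Sel1l, the scaffold of the HRD1 ligase, was at 0, 0.395 and 1.87 CPM in MII oocytes, against 7.32, 19.0 and 64.6 CPM in GV oocytes. These 3 genes had MII values at or near the floor while each GV oocyte was well above it. Pdia4 was at 0, 0.620 and 0.625 CPM in MII oocytes, against 12.8, 16.9 and 16.9 CPM in GV oocytes. Erp44, which retains client enzymes in the early secretory pathway, was 5.68-fold lower, and Atf6b was lower from a GV mean of 2.45 CPM. Ddit3 had 0, 0 and 47.2 CPM in MII oocytes, against 159, 182 and 188 CPM in GV oocytes (11.2-fold lower).

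The sensors and the phosphatase subunit Ppp1r15a (GADD34, which reverses PERK's block on translation) went less with the chaperones. All 6 genes of sensors and their processing had ratios above 0 in young controls and in aged controls, with medians of 1.52 and 1.00. With DESeq2 size factors 5 of 6 did in young controls, and with TPM 5 of 6 in aged controls. With NMN 3 of 6 did. Eif2ak3, Mbtps1, Mbtps2 and Ppp1r15a were above 0 in all 3 conditions with TMM scaling. For Mbtps1 with NMN this rested on 1 MII oocyte, with 0, 0 and 29.4 CPM in MII against 6.40, 6.79 and 13.1 CPM in GV oocytes. By deposited TPM, Mbtps2 was lower in MII than GV aged control oocytes, at means of 4.29 against 6.82 TPM. Ppp1r15a was at 39.4, 53.7 and 180 CPM in MII aged NMN oocytes, against 7.30, 48.3 and 62.0 CPM in GV aged NMN oocytes. In each condition its MII and GV oocytes overlapped.

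**Figure D3:**
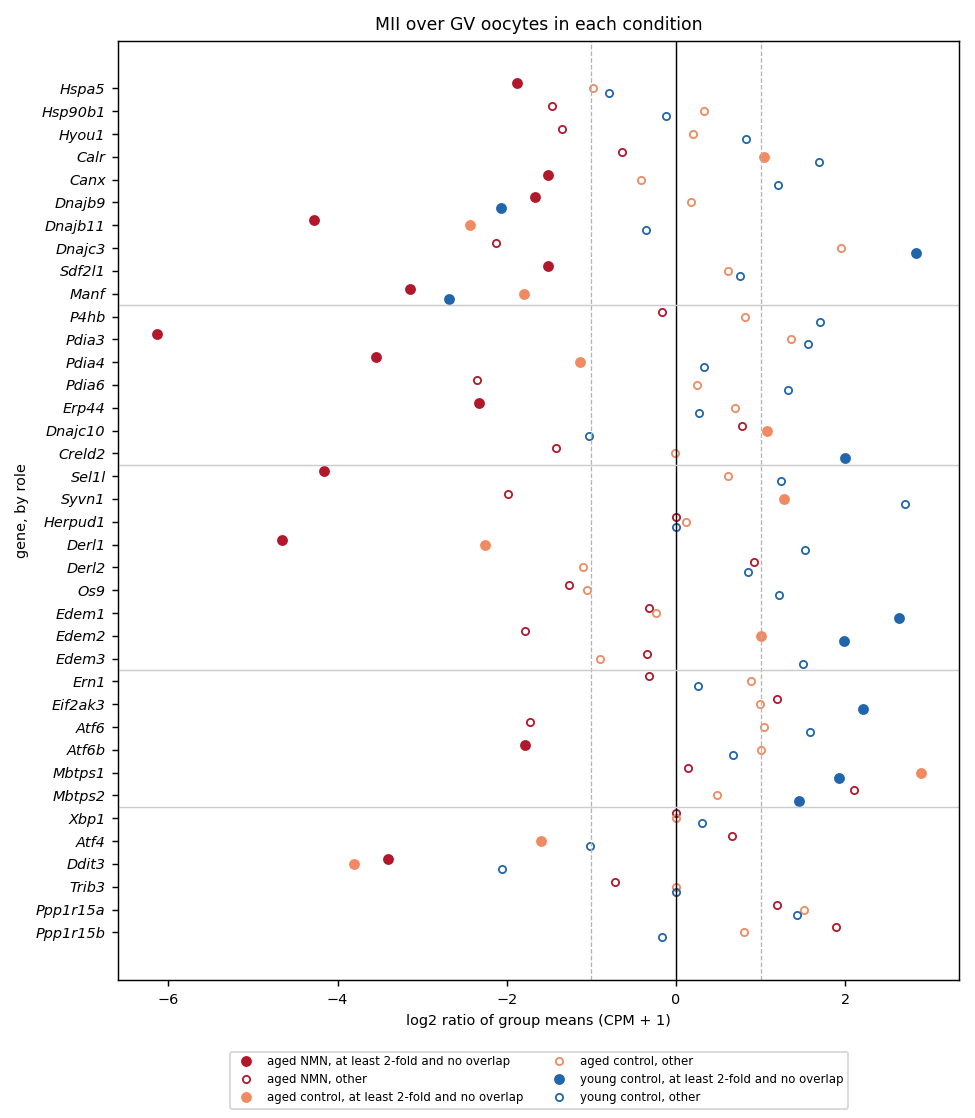
Log2 ratio of MII over GV group means (CPM plus 1) for the 38 genes (down the page, by role) in aged NMN, aged control and young control oocytes. Filled points passed the rule (dashed lines mark a ratio of 1 in size), and the aged NMN points lie left of 0 for all 10 chaperones and co-chaperones, while the sensor points of the controls lie right of 0.

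Hspa5, Ddit3, Atf4 and Xbp1 differed among themselves at maturation. Ddit3 was below 0 at maturation in each condition, but in young controls MII oocytes at 5.99, 10.7 and 54.6 CPM overlapped GV oocytes at 23.2 and 180.5 CPM. Hspa5 was at 48.5, 90.5 and 145 CPM in MII young control oocytes, against 124 and 204 CPM in GV young control oocytes, and at 32.7, 59.1 and 73.3 CPM in MII aged control oocytes, against 78.9 and 139 CPM in GV aged control oocytes. The last of these did not overlap but was 1.98-fold, short of the rule (log2 ratio -0.98). Atf4 was at 3.56, 10.7 and 37.5 CPM in MII young control oocytes, against 4.17 and 67.7 CPM in GV young control oocytes, which overlapped. Xbp1 stayed at or near 0 at both stages in each condition.

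Age was described by setting aged controls beside young controls at each stage. Among GV oocytes, 5 members were higher in aged oocytes past the rule and 2 lower, where 19.7% of all genes were higher and 5.68% lower. The members' median was 0.07 and that of all genes 0.29. Of the 5, 4 belong to ER-associated degradation. Derl1 was at 14.98 and 43.3 CPM in GV aged control oocytes, against 0.515 and 0.522 CPM in GV young control oocytes, or 4 counts in all (56.2-fold). Os9, a lectin that delivers glycoproteins to the HRD1 ligase, was at 40.5 and 177 CPM in aged oocytes, against 27.1 and 38.4 CPM in young oocytes (3.32-fold). Derl2, a relative of Derl1, was at 17.7 and 32.3 CPM in aged oocytes, against 2.83 and 17.0 CPM in young oocytes (2.52-fold). For Os9 and Derl2 the gap between the ages was small. Without GV aged control 1 the Os9 ratio was 0.30 on the log2 scale, and within batch 2 that of Derl2 was 0.06, or 0.78 where GV young control 1 is read as batch 2.

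Edem3 and Eif2ak3 also passed the rule in GV aged oocytes, from means of 4.61 and 3.93 CPM. The 2 lower genes were Dnajc10 and Ppp1r15b. Dnajc10 was at 2.63 and 4.91 CPM in aged oocytes, against 13.4 and 63.4 CPM in young oocytes (10.2-fold). Ppp1r15b, the constitutive partner of Ppp1r15a, was at 5.40 and 6.14 CPM in aged oocytes, against 6.44 and 19.6 CPM in young oocytes, and without GV young control 2-2 its ratio was -0.14. Hspa5 was at 78.9 and 139 CPM in GV aged control oocytes, against 124 and 204 CPM in GV young control oocytes (log2 ratio -0.58). Atf4 was at 37.3 and 44.0 CPM in aged oocytes, against 4.17 and 67.7 CPM in young oocytes (0.17). Both overlapped, as did Ddit3, at 58.2 and 180.5 CPM in aged oocytes, against 23.2 and 180.5 CPM in young oocytes (0.23), and Xbp1 had no count.

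Markers of immune cells summed to 9.82 and 237 CPM in GV aged control oocytes, against 0 and 2.83 CPM in GV young control oocytes. Of the 8 immune markers, C1qb made up nearly all of it, while Ptprc, Adgre1, C1qa and Cd3e had no count in any oocyte, and the part of these cells in the GV age values was not tested. The GV aged control 1 oocyte (177 CPM of Os9) has no batch in its title, was read as batch 1 and had fractional counts for 23.6% of its detected genes, against 14.6% in GV aged control 2-1, 14.5% in GV young control 1 and 14.2% in GV young control 2-2. Whether batch set these values was not tested.

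Among MII oocytes, 0 members were higher in aged oocytes and 4 lower, where 1.76% of all genes were higher and 5.39% lower. The median was -0.42 against -0.27 for all genes. Of the 38 members 8 lay above 0 and 29 below 0, where 35.5% of all genes lay above 0. The 4 were Edem1, Dnajb11, Edem2 and Creld2. Edem1 was at 0.500, 2.18 and 13.6 CPM in MII aged control oocytes, against 16.8, 38.7 and 58.9 CPM in MII young control oocytes (7.05-fold lower). Edem2 was at 38.8, 43.6 and 53.8 CPM in aged oocytes, against 87.4, 156 and 198 CPM in young oocytes (3.24-fold lower). Dnajb11 was at 7.74, 9.44 and 10.005 CPM in aged oocytes, against 17.4, 38.4 and 55.0 CPM in young oocytes (4.07-fold lower). For each of these 3 all aged oocytes lay below all young oocytes. Creld2 was at 92.6, 283 and 296 CPM in aged oocytes, against 334, 479 and 543 CPM in young oocytes (2.02-fold lower), just past the rule. Edem1 and Edem2 were thus higher in MII than GV oocytes of young controls and lower in aged than young MII oocytes, 2 comparisons that share the MII young control oocytes.

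Hspa5 was at 32.7, 59.1 and 73.3 CPM in MII aged control oocytes, against 48.5, 90.5 and 145 CPM in MII young control oocytes (log2 ratio -0.77). Ddit3 was at 2.91, 5.25 and 14.6 CPM in aged oocytes, against 5.99, 10.7 and 54.6 CPM in young oocytes (-1.53). The ages overlapped for both, and for Atf4, at 6.50, 10.03 and 21.8 CPM in aged oocytes, against 3.56, 10.7 and 37.5 CPM in young oocytes (-0.41). Xbp1 had no count in the aged and 4 counts in the young oocytes.

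The summed level of cumulus and granulosa markers was 17.4, 21.5 and 80.2 CPM in MII aged control oocytes, against 29.7, 145 and 302 CPM in MII young control oocytes, with Foxl2 and Amh at 0 counts in all 16 oocytes. Their part in these age values was not tested. Endothelial markers summed to 25.5 to 29.4 CPM in MII aged control and 7.74 to 61.8 CPM in MII young control oocytes, and those of theca and stroma to between 1.09 and 12.7 CPM in the first of these groups and between 3.72 and 15.9 CPM in the second. In GV oocytes the cumulus and granulosa sum was at most 77.3 CPM, the endothelial sum at most 15.5 CPM and the theca and stroma sum at most 9.83 CPM. Erythroid markers had at most 29.8 CPM, in an MII aged NMN oocyte.

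NMN was described by setting aged NMN beside aged control oocytes. These comparisons share the aged control oocytes with the age comparisons, so the values of both are given side by side and not related to each other. Among GV oocytes, 2 members were higher with NMN past the rule and 1 lower, where 2.61% of all genes were higher and 5.39% lower. The median was 0.05, against 0.01 for all genes. The 3 genes were low. Mbtps1 was at 6.40, 6.79 and 13.1 CPM in GV aged NMN oocytes, against 0.491 and 4.73 CPM in GV aged control oocytes. Atf6b (mean 2.45 against 0.526 CPM) and Edem3 (mean 0.271 against 4.61 CPM) had few counts, and none of the 3 passed when 5 CPM were added in place of 1. Pdia3 was at 65.1, 71.5 and 71.8 CPM in GV aged NMN oocytes, against 31.6 and 63.3 CPM in GV aged control oocytes, without overlap but 1.46-fold higher and thus short of the rule (log2 ratio 0.54). Hspa5 was at 68.1, 84.1 and 126 CPM in GV aged NMN oocytes, against 78.9 and 139 CPM in GV aged control oocytes (log2 ratio -0.23). Atf4 was at 32.7, 45.7 and 53.5 CPM with NMN, against 37.3 and 44.0 CPM in controls (0.11). These groups overlapped, as they did for Ddit3, at 159, 182 and 188 CPM with NMN, against 58.2 and 180.5 CPM in controls (0.56). Xbp1 had no count in either group.

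Among MII oocytes, 0 members were higher with NMN past the rule and 15 lower, where 1.31% of all genes were higher and 11.3% lower. The median was -1.40, against -0.33 for all genes. Of the 38 members 8 lay above 0 and 28 below 0, where 32.3% of all genes lay above 0. All 10 chaperones and co-chaperones lay below 0 under each of 4 scalings, as did 6 of 7 disulfide isomerases and reductases. These ratios went with the low number of detected genes and the high mitochondrial share of MII aged NMN 1 and 2 given above, whose part in it was not tested. With MII aged NMN 2-1 alone, an alternative chosen after seeing the data that leaves 1 oocyte, the median was -0.75.

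Dnajc3 was at 8.38, 50.9 and 245 CPM in MII aged NMN oocytes, against 330.5, 1617 and 2708 CPM in MII aged control oocytes (log2 ratio -3.92, 15.3-fold lower). Within batch 2, 245 CPM stood against 330.5 CPM, a log2 ratio of -0.43. The title of MII aged NMN 2 reads batch 2, and with that oocyte placed there the ratio within batch 2 was -1.38. Hsp90b1, the ER form of HSP90, was at 0.395, 6.82 and 157 CPM in MII aged NMN oocytes, against 173, 289 and 345 CPM in MII aged control oocytes (4.92-fold lower). For Dnajc3 and Hsp90b1 the oocyte nearest the controls was MII aged NMN 2-1. Within batch 2, Hsp90b1 was at 157 CPM in that oocyte against 173 CPM in MII aged control 2-1. Calr was at 0, 11.5 and 65.0 CPM with NMN, against 87.9, 90.1 and 102 CPM in controls (3.66-fold lower). Within batch 2, Calr was at 65.0 CPM with NMN against 87.9 CPM in the control oocyte. Canx was at 15.2, 22.1 and 30.0 CPM with NMN, against 38.9, 109 and 134 CPM in controls (4.19-fold lower). Sdf2l1 was at 0, 14.0 and 24.7 CPM with NMN, against 37.3, 55.9 and 89.8 CPM in controls (4.74-fold lower). In all of these the groups did not overlap, and MII aged NMN 2-1 was the highest of its group.

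Pdia3 had no count with NMN, against 5.45, 131 and 235 CPM in MII aged control oocytes, at least 369.8-fold lower when the whole group is set to 3 counts (log2 ratio -7.52 within batch 1 and -2.69 within batch 2, where the control oocyte was at 5.45 CPM). It was the gene with the largest ratio of the 38 in this comparison. MII aged NMN 2-1 also lacked it, an oocyte with 7725 genes with a count, against 8539 or more in each oocyte outside its group. The part of low detection in this was not tested. Sel1l was at 0, 0.395 and 1.87 CPM with NMN, against 26.4, 29.8 and 44.5 CPM in controls (44.4-fold lower), and this held within each batch, at -4.93 in batch 1 and -3.42 in batch 2 on the log2 scale. These 2 genes were near 0 in all 3 NMN oocytes, which set them apart from Dnajc3 and Hsp90b1. Atf6, the sensor released by proteolysis, was at 0, 0 and 10.3 CPM with NMN, against 28.3, 42.8 and 56.7 CPM in controls (12.4-fold lower). Ern1, the IRE1 sensor, was at 0, 24.5 and 30.0 CPM with NMN, against 49.4, 73.0 and 109 CPM in controls (4.25-fold lower). Edem2 was at 0, 3.55 and 17.5 CPM with NMN, against 38.8, 43.6 and 53.8 CPM in controls (6.47-fold lower). Erp44 was at 0.310, 2.76 and 15.3 CPM with NMN, against 27.6, 47.9 and 58.0 CPM in controls (7.27-fold lower). For these 4 genes all NMN oocytes lay below all control oocytes. Dnajb11, Syvn1, Derl1 and Atf6b were lower too, from control means of 9.06, 6.78, 5.33 and 2.07 CPM.

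Not all members were low in the MII aged NMN oocytes. Atf4 was at 0, 51.8 and 158 CPM with NMN, against 6.50, 10.03 and 21.8 CPM in MII aged control oocytes, so that 2 NMN oocytes were above all controls and MII aged NMN 2-1 was at 0. Ppp1r15a was at 39.4, 53.7 and 180 CPM with NMN, against 25.7, 60.5 and 107 CPM in controls, and held the largest share of the members' CPM in MII aged NMN 1. Mbtps2 was at 1.25, 19.7 and 69.8 CPM with NMN, against 0, 13.7 and 15.3 CPM in controls. Derl2 was at 0.790, 26.9 and 112 CPM with NMN, against 4.00, 5.81 and 23.5 CPM in controls. The groups overlapped for each of these 4 genes. The highest value was that of MII aged NMN 1 for Atf4 and Ppp1r15a and that of MII aged NMN 2 for Mbtps2 and Derl2, the oocytes with the fewest detected genes. Hspa5 was at 0, 22.6 and 50.9 CPM with NMN, against 32.7, 59.1 and 73.3 CPM in controls (log2 ratio -1.13), overlapping. Ddit3 had 0, 0 and 47.2 CPM with NMN, against 2.91, 5.25 and 14.6 CPM in controls.

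P4hb and Pdia6, both disulfide isomerases, were highest in MII aged NMN 2-1 instead. P4hb, which also serves prolyl hydroxylase, was at 0, 0 and 91.8 CPM in MII aged NMN oocytes, against 62.1, 62.3 and 112 CPM in MII aged control oocytes. Pdia6 was at 0, 5.13 and 95.2 CPM with NMN, against 94.9, 126 and 201 CPM in controls. In both genes MII aged NMN 2-1 reached the controls while the other 2 NMN oocytes were far below them. Hyou1, a nucleotide exchange factor of HSPA5, had no count with NMN and at most 1.25 CPM in controls, which is near the floor of 3 counts. Its highest value in any of the 16 oocytes was 3.26 CPM.

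**Figure D4:**
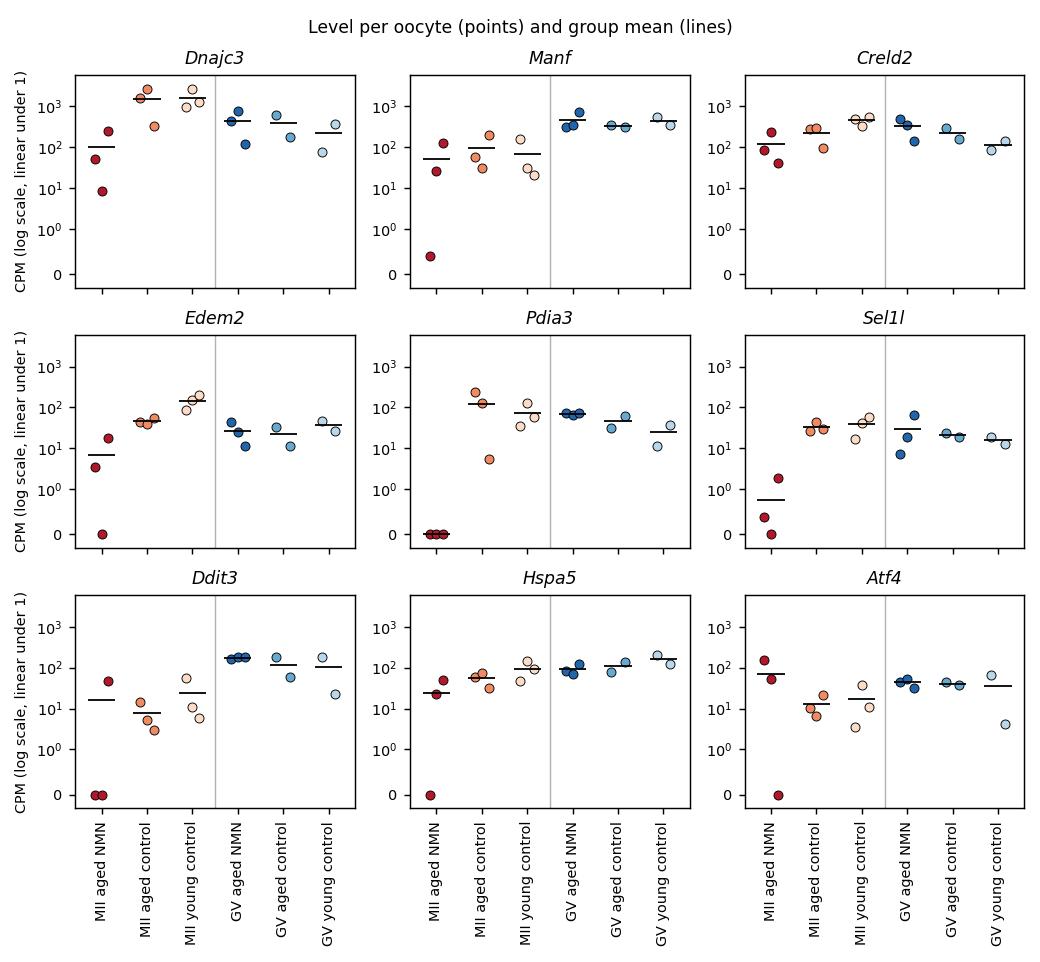
Level in CPM (log axis, linear under 1) of 9 members in each oocyte (points) with group means (lines), MII groups left of the grey line and GV groups right of it. Pdia3 and Sel1l are at or near 0 in the 3 MII aged NMN oocytes, Manf is lower in every MII than in every GV oocyte, and Atf4 reaches 158 CPM in an MII aged NMN oocyte.

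**Figure D5:**
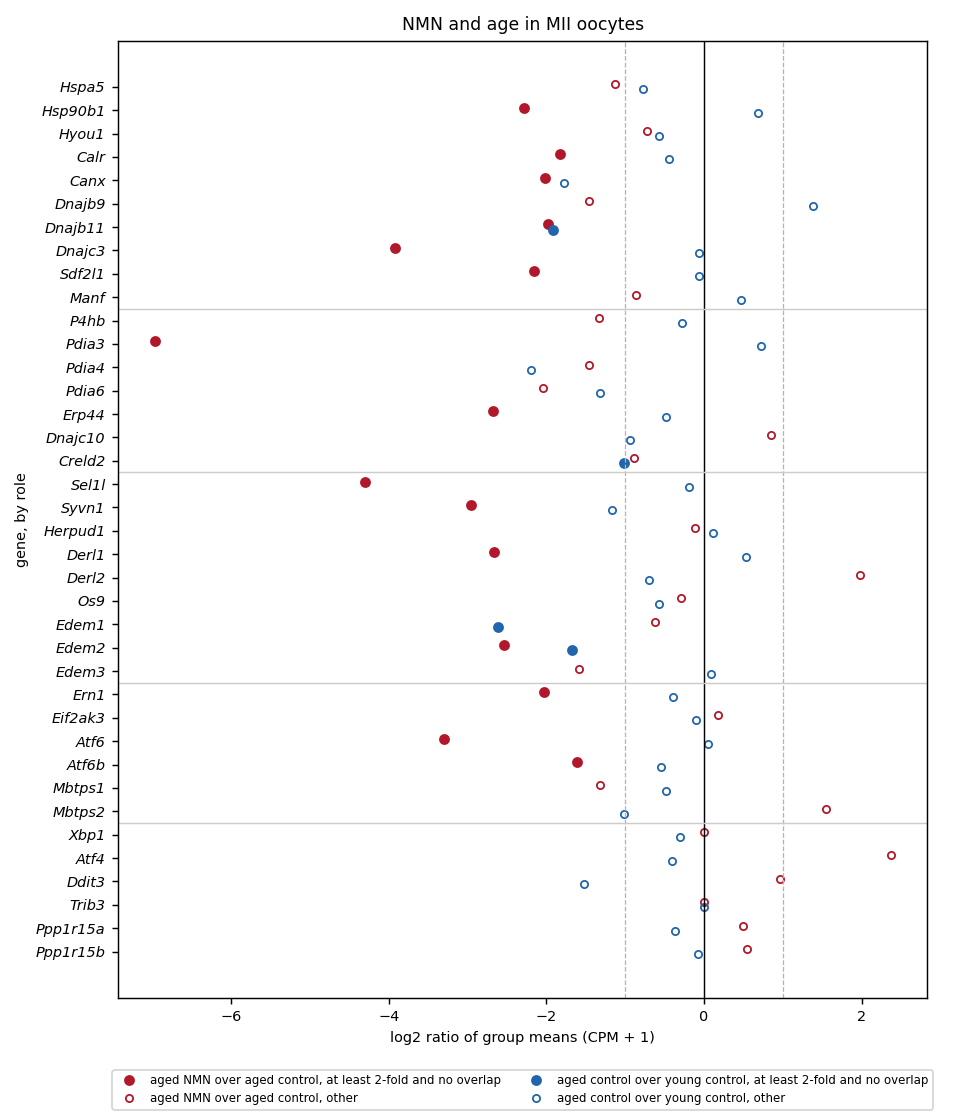
Log2 ratio of group means (CPM plus 1) in MII oocytes for aged NMN over aged control and aged control over young control, for the 38 genes by role. Filled points passed the rule, and 15 of the NMN points and 4 of the age points do so, all left of 0. The 2 comparisons share the MII aged control oocytes.

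The members whose promoter window held an ERSE did not stay together. Their share of the members' summed CPM was 27.4 to 82.0% in MII and 34.9 to 57.7% in GV oocytes. At maturation the median log2 ratio of the 8 was -1.70 in aged NMN, 0.29 in aged control and 1.51 in young control oocytes. Over the 25 members with a window but no ERSE it was -0.35, 0.48 and 0.76 in the same conditions. With NMN in MII oocytes it was -2.03 for the 8, with all 8 below 0 and 5 past the rule, and -1.32 for the 25, with 8 past the rule, all lower. Between aged and young MII oocytes it was -0.89 for the 8 and -0.41 for the 25. In GV oocytes it was 0.22 for the 8 and 0.00 for the 25 with age, and 0.00 and 0.11 with NMN. Hspa5 and Dnajc3, which both hold the element, had log2 ratios of -0.79 and 2.84 at maturation in young controls. Levels of the 8 and the 25 were not matched, and genes near the floor have ratios near 0 because 1 CPM was added. The -0.35 of the 25 with NMN was the ratio of Edem3, at means of 0 against 0.271 CPM. Their 0.00 with age in GV oocytes was that of members with no count in either group, such as Herpud1.

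Other genes of the ER were counted by the same rule in 5 lists. Of 23 folding enzymes and lectin-cycle genes, 0 were higher and 8 lower in MII than GV oocytes with NMN, 4 and 6 in aged controls, and 6 and 2 in young controls. Sil1, a nucleotide exchange factor of HSPA5, was lower in MII oocytes in all 3 conditions, at means of 1.46 against 181 CPM in aged NMN, 11.2 against 242 CPM in aged control and 3.87 against 33.3 CPM in young control oocytes. Of 22 translocation and N-glycosylation genes, 0 were higher and 5 lower with NMN, 1 and 7 in aged controls and 2 and 7 in young controls. Spcs1, a signal peptidase subunit, was lower in each, at means of 46.4 against 510.2 CPM, 75.8 against 483 CPM and 56.1 against 644 CPM in the same conditions. Of 21 other ER-associated degradation genes, 0 were higher and 5 lower with NMN, 2 and 4 in aged controls and 3 and 2 in young controls. Ufd1 and Nploc4, the cofactors of the p97 ATPase, were among the lower ones in each condition.

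Of 22 other stress sensors and effectors, 0 were higher and 4 lower in MII oocytes with NMN, 0 and 3 in aged controls and 3 and 0 in young controls. Rtcb, the ligase that joins the XBP1 exons cut by IRE1, had no count in MII aged NMN and MII aged control oocytes, against GV means of 27.2 and 31.6 CPM. Of 14 ER-phagy and UFMylation genes, 0 were higher and 3 lower with NMN, 0 and 5 in aged controls and 3 and 3 in young controls, with Ufc1 lower in each. Shares of the 5 lists are over all 102 genes, of which some did not pass the filter, while those of all genes are over the genes kept. The 2 are thus not on the same base. Between aged NMN and aged control MII oocytes none of these 102 genes was higher, and 14 were lower (13.7%, beside 11.3% of the genes kept). Vcp, the p97 ATPase itself, was the largest, at means of 0.729 against 37.2 CPM. Between aged and young MII oocytes 1 was higher and 5 lower. Among GV oocytes 23 were higher with age (22.5%, beside 19.7% of the genes kept) and 4 lower, and 1 was higher with NMN and 2 lower. The members' own median with NMN in MII oocytes (-1.40) stood beside list medians of -0.73 for folding enzymes, -0.46 for translocation, -0.66 for other degradation genes, -0.02 for other sensors and -0.06 for ER-phagy. Genes of few or no counts, whose ratios lie near 0, are part of these medians. In the list of other sensors 13 of 22 genes passed the filter, against 35 of the 38 members, so the medians are not like for like.

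Some counts can hold reads of neighbours, since the strand setting of the authors' counting is not given in the sources used here. In GENCODE, 28.4% of the exon bases of Mbtps2 lie in those of Yy2 on the same strand, 11.4% of Ppp1r15b and 10.3% of Hsp90b1 in those of opposite-strand genes, and 8.05% of Eif2ak3 likewise. Ddit3 shares 6.13% with another gene record of the same symbol and 3.97% with Mars, and Manf shares 4.71% and 4.14% with opposite-strand genes, Dcaf1 the second of them. Values of these genes are uncertain to that extent.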

How the data were processed

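RNA of single mouse oocytes was measured, 1 table per library. Per the file headers each deposited table holds expected counts and TPM per gene. The submitters' processing notes name TopHat2 2.1.1, Cufflinks, Trim Galore 0.4.5 and FastQC 0.11.8, and the builds mm10 and GRCm38, while the step that made the tables is not given in the sources used here. The libraries were made with the TruePrep DNA Library Prep Kit V2, per the labels' protocols. Each deposited expected count was rounded to a whole number, and low genes were removed with filterByExpr of edgeR 4.0.16 (minimum count 10 by group), which left 12161 genes and 35 of the 38 members. TMM factors gave scaled CPM (R 4.3.3), and ratios are log2 of group means plus 1 CPM. A share of all genes past the rule is over the genes kept, while members' counts and medians are over all 38. Those of the 5 other lists are over all genes listed. Values per oocyte are given for members past the rule whose higher group averaged 10 CPM or more, up to 12 per comparison. Sdf2l1, Dnajb9 and Erp44 at maturation with NMN are given as folds alone. Values are also given for Hspa5, Xbp1, Atf4 and Ddit3, whatever their size. Other members and genes named with values were chosen after their values were seen. The members and lists were chosen with earlier results of these data known. No test was made between groups, since animals are not named. Titles with "batch 2-" were read as batch 2 and the others, most of which name no batch, as batch 1. The title of MII aged NMN 2 says batch 2 with no oocyte number. It was read as oocyte 2 of batch 1, and as batch 2 in an alternative. The comparison step was checked on simulated data in which only genes of higher level were changed. The simulated spread was a fixed setting and not that of these oocytes, so calls on low or variable genes were not checked. Poisson intervals are exact at 95% and divide pooled counts by the summed library sizes of the same oocytes after TMM scaling. Exon overlaps were taken from GENCODE vM21 and promoters from RefSeq, and plots were drawn with matplotlib 3.10.9. Alternatives were DESeq2 1.42.0 size factors, nuclear totals, deposited TPM, 5 CPM added, the library of few counts kept, single batches and each oocyte left out.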

Additional observations from a re-analysis of the deposited data

Results flagged for a closer look

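Creld2 went opposite ways with age at the 2 stages, with a log2 ratio of aged over young controls of 0.9955 in GV oocytes and of -1.01 in MII oocytes. At each stage the oocytes of the 2 ages did not overlap. Pdia3 went opposite ways with NMN, with a log2 ratio of aged NMN over aged control of 0.54 in GV oocytes and of -6.96 in MII oocytes, again with no overlap at either stage. Sel1l went opposite ways at maturation, with a log2 ratio of MII over GV oocytes of -4.16 in aged NMN and of 0.62 in aged control oocytes, with no overlap in either. The 3 genes were listed because their ratios had opposite signs without overlap, so neither trait is an added result. The ratios of 0.9955, 0.54 and 0.62 were short of the rule. These differences were not tested, since each group stands as 1 sample.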

How the results depend on the processing

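For the 48 ratios past the rule whose higher mean was 10 CPM or more (27 members), 693 values were computed under alternatives. Of these, 598 moved by less than the spread between oocytes, 95 moved by more and 0 changed sign. Groups without overlap keep their sign when oocytes are left out, a single batch is used or 5 CPM are added. For those alternatives the 0 was fixed in advance, and only another scaling or the library of few counts could have changed a sign. Ratios of other members did change sign, and the members above 0 at maturation in young controls were 24 to 31 over 4 scalings. With 5 CPM added in place of 1, the median of the members at maturation in young controls was 0.64, and 6 members passed the rule at maturation in aged controls, 4 with age in GV and 0 with NMN in GV oocytes. With deposited TPM 1 passed with NMN in GV oocytes. With the library of few counts kept, 3 passed with age in GV oocytes and the NMN median in GV oocytes was 0.61. Within batch 1 the young maturation median was 0.59 and within batch 2 it was 1.60. The age median in MII oocytes was -1.06 within batch 2, and the NMN median in MII oocytes was -2.56 in batch 1 and -0.41 in batch 2, or -3.04 in batch 1 and -0.87 in batch 2 where MII aged NMN 2 is read as batch 2. Leaving out each oocyte in turn gave young maturation medians of 0.79 to 1.49. The counts past the rule were then 10 to 19 in young maturation (19 without MII young control 1, 15 without GV young control 1, 14 without GV young control 2-2) and 13 to 18 in aged maturation (18 without GV aged control 1). They were 13 to 23 at maturation with NMN (23 without MII aged NMN 2-1, 20 without GV aged NMN 2-1), 10 to 14 with age in GV oocytes (11 without GV aged control 2-1, 14 without either GV young control) and 4 to 7 with age in MII oocytes (7 without MII aged control 1 or MII young control 1). With NMN they were 2 to 10 in GV oocytes (10 without GV aged control 1, 6 without GV aged NMN 2 or 2-1) and 15 to 25 in MII oocytes (25 without MII aged NMN 2-1). Fewer oocytes overlap less often by construction. Without MII aged NMN 1 and 2, chosen after seeing the data, the maturation median with NMN was -0.86. With groups at 0 set to their floor the members' medians were -1.39 at maturation with NMN and -1.26 with NMN in MII oocytes. The cause of each shift was not tested.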
